A study of Mus musculus with 12 samples.

Results

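The genes described here encode the proteins of the mitochondrial ribosome. They were taken from the count table as every row whose symbol, ignoring case, starts with Mrpl or Mrps and goes on with a number, leaving out pseudogene symbols ending in -ps. The rule found 78 of 22416 rows, 49 with a large subunit symbol (Mrpl) and 29 with a small subunit symbol (Mrps), and used no measured value. RNA-seq was made of mouse embryonic stem cells in 12 libraries, 4 groups of 3. Cells carried either the normal alleles, eIF2α +/+ (WT), or eIF2α A/A (KI), alleles in which alanine stands in place of the serine that stress kinases phosphorylate. Each genotype was kept for 6 days in serum-free stem cell medium with LIF/2i, that is leukaemia inhibitory factor with the MEK inhibitor PD0325901 and the GSK3 inhibitor CHIR99021, or with LIF. The labels do not say how many clones, parental lines or cultures each genotype stands for, and p-values therefore reflect only the spread among these libraries, which may be technical.

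Mitochondrial ribosomes make the few proteins that mitochondrial DNA encodes, all of them subunits of the respiratory chain and the ATP synthase. The ribosomal RNAs come from mitochondrial DNA, whereas every protein of the ribosome is encoded in the nucleus, translated in the cytosol and imported. Some of the proteins descend from bacterial ribosomal proteins and others were added in the mitochondrial lineage. Phosphorylation of eIF2α lowers general translation in the cytosol and raises translation of ATF4, the transcription factor of the integrated stress response, which is also a known answer to failing mitochondria. The symbols are not a perfect guide to place. The proteins of Mrps18a and Mrps30 sit in the large subunit, and the product of Mrps36 is now known as a part of the α-ketoglutarate dehydrogenase complex.

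The 12 libraries held between 2307219 and 9713857 counts. Members took 0.344 to 0.471% of the counts of a library and mitochondrially encoded genes 1.13 to 2.7%. The counts of replicates 1 and 3 of WT LIF agreed within sampling noise (chi-square per degree of freedom 0.858 over 12373 genes), and this pair was counted as 1 sample, so WT LIF has n = 2 and the fits used 11 samples. Levels are given as CPM, a gene's counts relative to the TMM-scaled library size. Stem cell markers (Pou5f1, Nanog and 6 others) summed to between 2570 and 3840 CPM in every library. Single markers changed within that sum, by the edgeR test described below. Utf1 was called higher in KI than in WT in LIF/2i, and higher in LIF than in LIF/2i in both genotypes. It was at 177 to 180 CPM in WT LIF/2i and 312 to 520 in KI LIF/2i. In LIF it was at 568 to 622 CPM in WT and 790 to 1450 in KI. Nanog and Zfp42 were called lower in LIF in both genotypes, and Esrrb in KI. Fibroblast markers summed to 2.13 to 4.29 CPM in WT LIF/2i, 21.5 to 381 in WT LIF, 7.39 to 16.1 in KI LIF/2i and 85.8 to 126 in KI LIF. Collagen genes made up most of each fibroblast sum. No gene of these marker lists was at 0 in every library, but Lum, Dcn and Twist2 reached at most 0.155, 0.827 and 0.62 CPM. In bulk samples, fewer cells of a type and less RNA per cell cannot be told apart.

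The members have short coding sequences and are spread over the genome. In GENCODE M21 (GRCm38) they lie on 17 chromosomes, with 11 members on chromosome 11, 8 on chromosome 17, 7 on chromosome 6 and none on chromosome 12. Their counted coding sequence was 261 to 1326 bases long, with a median of 582, against 1143 over all rows. A neighbouring protein-coding gene on the other strand, pointing away, with outermost starts within 1000 bases and an overlap of at most 100 bases, was annotated for 19 members (24.4%), against 7.2% of 21545 protein-coding genes of the table. That background includes genes with too few counts to be tested, and expressed genes alone were not compared. Mrpl32 faces the proteasome gene Psma2, Mrpl36 the complex I gene Ndufs6, and Mrpl10 faces Lrrc46. Mrpl46 and Mrps11, a large and a small subunit gene, stand head to head on chromosome 7 but overlap by more than that and are not among the 19. Counted coding bases of 17 members overlap an exon of another gene, in 4 of them (Mrpl33, Mrpl53, Mrps18c and Mrps6) on the same strand, and the use of strand in the counting is not given in the sources used here. The values of these 17 are therefore uncertain to that extent.

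Promoters were compared because the members share regulators by textbook account: NRF1, the ETS family factor GABP and YY1 are known activators of nuclear genes for mitochondrial proteins. RefSeq promoter windows (GRCm38.p6, 250 bases before to 50 after the start) were held for 69 of the 78 members. Both strands were searched, and matches of different motifs overlapped in 0 of the members' windows. The NRF1 letters GCGCANGCG were in the windows of 23.2% of these members, against 9.98% of 16809 genes of the table. The ETS letters CCGGAAGT were in 17.4% against 5.87%, and the YY1 letters AAGATGGC in 17.4% against 3.6%. At least 1 of the 3 stood in 53.6% of members and in 17.6% of genes. Per window of 300 bases the shares were 49.3% of 75 member windows and 11.8% of 32851 windows. The latter are all RefSeq windows held, also those of genes outside the count table. The E-box CACGTG read by MYC was in 7.25% of members against 9.16% of genes, though per window in 9.33% against 7.15%. The per-window share counts 1 E-box of Mrpl2 in 3 overlapping windows. Of the remaining letters, TATAAA was in 7.25% of members against 14.5% of genes, and the ATF4 composite TGATGNAAT in 0% against 0.928%. Median GC content was 58.7% in member windows and 57.0% in windows of the table's genes. The background genes include ones with too few counts to be tested, and members were not compared with expressed genes alone. A match describes letters in a window and no binding was measured.

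Stretches of 120 bases just before the RefSeq start, from GRCm38.p6 and 5′ to 3′ on the gene's own strand, are given for 4 members, with the matched letters in capitals. Mrpl17 has a pair of NRF1 matches and the second highest level per kilobase (chr7:105811088-105811207, minus strand), Mrpl3 has an ETS match close to its start (chr9:105053148-105053267, plus strand), and Mrps11 has a YY1 match on the reverse strand in the region it shares with Mrpl46 (chr7:78783011-78783130, plus strand). Mrpl58, the member with the largest difference between genotypes in LIF/2i, has none of the searched letters in its whole window, whose stretch is shown for contrast (chr11:115403632-115403751, plus strand).
Mrpl17: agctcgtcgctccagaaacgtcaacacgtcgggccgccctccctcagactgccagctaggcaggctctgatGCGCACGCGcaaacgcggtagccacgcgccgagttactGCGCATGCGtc
Mrpl3: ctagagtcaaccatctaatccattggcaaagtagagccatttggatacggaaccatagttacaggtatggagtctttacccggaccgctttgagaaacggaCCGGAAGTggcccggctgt
Mrps11: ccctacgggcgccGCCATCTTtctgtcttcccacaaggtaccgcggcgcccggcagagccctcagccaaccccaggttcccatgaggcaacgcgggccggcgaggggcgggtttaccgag
Mrpl58: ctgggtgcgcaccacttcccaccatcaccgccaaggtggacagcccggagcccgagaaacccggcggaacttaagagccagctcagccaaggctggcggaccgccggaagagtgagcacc

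Most members were present at similar levels in these stem cells. On the scale of CPM per kilobase of coding sequence, which allows genes to be compared, the median member stood at 75.6, and the middle 50% of members lay between 49.3 and 99.2. The median was 80.1 for large and 71.7 for small subunit members. Mrps24, whose product is the counterpart of a bacterial protein at the mRNA entry of the small subunit, had the highest level at 275 CPM per kilobase. Mrpl17, at the exit of the peptide tunnel, followed with 248 and Mrpl15 with 231. Their order differed between groups, since in KI LIF the mean of Mrpl15 was 263 CPM per kilobase, that of Mrpl17 224 and that of Mrps24 209. The highest member was 3.64 times the median member, whereas the low end was longer.

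At the low end, 9 members averaged under 10 CPM. Mrpl48 had 6.20 CPM per kilobase, Mrpl27 had 4.96 and Mrpl23 had 1.3. Mrpl23 had between 2 and 8 counts in 11 libraries and none in KI LIF replicate 1, where 3 counts would be 1.06 CPM. It was the only member under the count filter, which left 77 members (48 large, 29 small) among 13229 genes tested. Mrpl23 encodes a protein at the end of the peptide tunnel. Each gene was counted over 1 transcript, and the handling of multiply matching reads is not given. The part of this counting in the low levels was not tested.

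**Figure D1:**
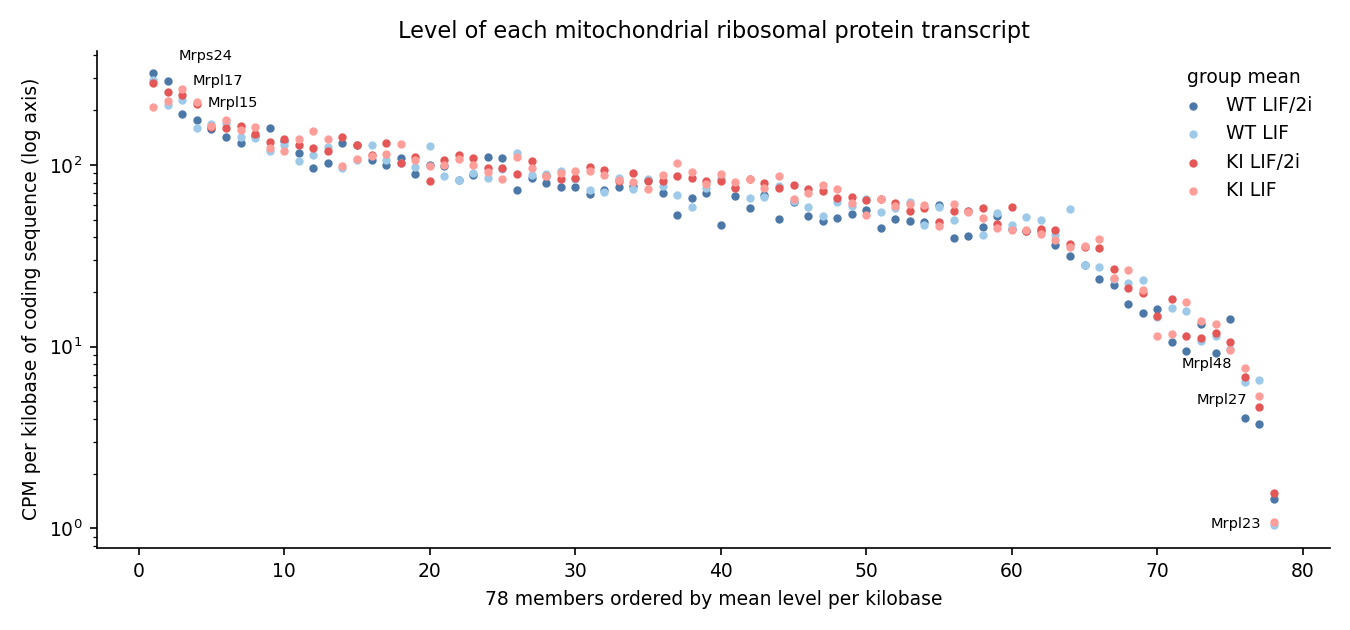
Level of the 78 members, ordered by their mean over the 11 samples, in TMM-scaled CPM per kilobase of coding sequence on a log axis. Points are the means of the 4 groups (n = 3, and 2 in WT LIF), and the 3 highest and 3 lowest members are named. Levels run from 275 for Mrps24 to 1.3 for Mrpl23, and the 4 groups lie close together for most members.

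The members varied little between groups. The means of the 4 groups lay within 2-fold of each other for 77 of 77 tested members, on the scale of log2(CPM + 0.5), and for 70.8% of all genes tested. The median range of the group means was 0.40 on the log2 scale for members and 0.63 for all genes. Within groups, the median SD of the log2 level was 0.23 for members and 0.31 for all genes (7 residual degrees of freedom). Members also had a higher median level (44.5 CPM against 26.9), whose part in the smaller SD was not tested. The steadiest members were Mrpl46, with a within-group SD of 0.09, and Mrps9, Mrps27 and Mrps30, each with 0.10. The widest were Mrps36 with 0.67, a gene of 3.41 CPM, and Mrpl20 with 0.65, a gene of 44.4 CPM.

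The libraries can be ordered by the median member's distance from its own mean over 12 libraries, in log2. WT LIF/2i replicates stood at -0.13, 0.02 and -0.35, and WT LIF replicates at -0.05, 0.03 and -0.03. KI LIF/2i replicates stood at 0.21, 0.11 and -0.02, and KI LIF replicates at 0.17, 0.00 and 0.10. WT LIF/2i replicate 3 was the lowest library for the family and KI LIF/2i replicate 1 the highest, while the medians over all genes tested stayed between 0.02 and -0.01. WT LIF/2i replicate 3 had 3234713 counts and 0.344% of them in members, the smallest share of any library. KI LIF/2i replicate 1 had 9713857 counts and 0.471%, the largest share. The shallowest libraries, KI LIF replicates 3 and 1, had 2307219 and 2835135 counts, with 0.441 and 0.466% in members.

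**Figure D2:**
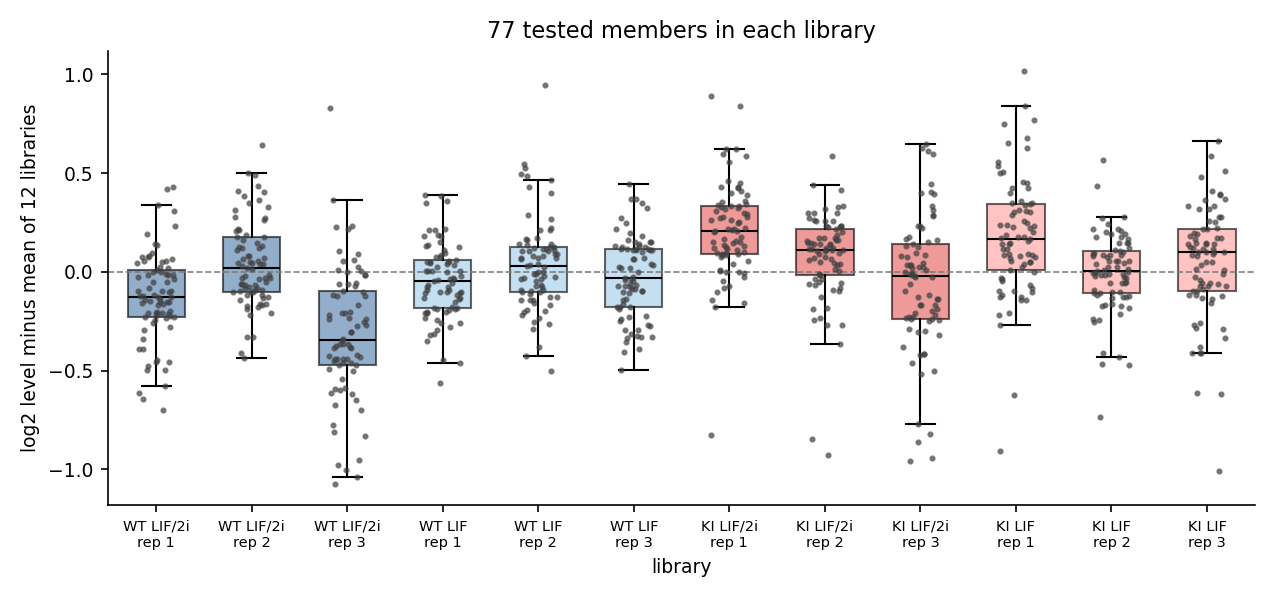
Log2(CPM + 0.5) of the 77 tested members in each of the 12 libraries, as the difference from each member's mean over the libraries (0, dashed). Points are members, boxes span the middle 50% with the median as a line, and whiskers reach the last point within 1.5 box lengths. WT LIF/2i replicate 3 has the lowest median at -0.35 and KI LIF/2i replicate 1 the highest at 0.21.

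In LIF/2i, most members were somewhat higher in KI than in WT, and none passed the test. The median log2 fold change of the 77 members was 0.26, against 0.02 over all genes tested, and 64 members (83.1%) lay above 0, where 52.1% of all genes did. The median was 0.28 in large and 0.24 in small subunit members. By edgeR's quasi-likelihood test with Benjamini-Hochberg adjustment over all genes, 0 of 77 members were called at 0.05, while 2.21% of all genes tested were called (0.975% higher and 1.24% lower in KI). At an unadjusted p under 0.05 there were 18 members, all higher in KI (23.4%). Of all 13229 genes, 2717 were under it in either direction (20.5%), and 1425 of these were higher in KI. DESeq2 called 5 members (Mrpl3, Mrpl16, Mrpl39, Mrpl46 and Mrpl58) and limma-voom called 1 (Mrpl58). In 22 members every KI sample lay above every WT sample (28.6%), with a background of 11.2% of all genes. In 0 members every KI sample lay below, against 11.5% of genes. The size of the shift rested in part on the 2 libraries named above: the median was 0.14 without WT LIF/2i replicate 3 and 0.15 without KI LIF/2i replicate 1. Fibroblast marker sums were also higher in every KI than in every WT library in LIF/2i, at the low levels given above, and their part was not tested.

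Mrpl58, also known as ICT1, is a peptidyl-tRNA hydrolase that became a fixed part of the large subunit and can free stalled ribosomes. Its level was 29.3, 35.7 and 21.7 CPM in WT LIF/2i and 54.1, 52.4 and 44.2 CPM in KI LIF/2i. All KI samples were above all WT samples. The log2 fold change was 0.80 ± 0.19 (SE, n = 3 and 3) with an adjusted p of 0.0544, the smallest among members and above the threshold of 0.05. The call turned with the setting: the adjusted p of Mrpl58 ran from 0.00725 to 0.152 over the alternatives, and with the replicate number as a block it was 0.0409. Its coding bases overlap Ict1os on the opposite strand.

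Of the members next in size, Mrpl21 (a counterpart of a bacterial large subunit protein) had a log2 fold change of 0.77 ± 0.28 in LIF/2i, against WT values of 5.57, 8.39 and 6.74 CPM and KI values of 12.2, 8.85 and 14.3. The genotypes did not overlap, and the adjusted p was 0.147. Mrps25, a mitochondria-specific protein of the small subunit, had a log2 fold change of 0.72 ± 0.33. Its WT LIF/2i values were 28.2, 34.2 and 19.0 CPM, and its KI LIF/2i values 66.9, 35.5 and 31.4 CPM. The groups overlapped, and without KI LIF/2i replicate 1 the difference shrank to the lowest value of its range, 0.28. The DESeq2 calls in LIF/2i included Mrpl16, which lies near the peptidyl transferase centre. Its level was 34.2, 41.4 and 35.8 CPM in WT and 51.4, 59.0 and 52.4 CPM in KI, with every KI sample higher. Mrpl16 had a log2 fold change of 0.56 ± 0.15 and an edgeR adjusted p of 0.0825.

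Among members with known roles, those of the stalk that recruits translation factors lay above 0 in LIF/2i: Mrpl12 at 0.47, Mrpl11 at 0.38 and Mrpl10 at 0.20, none past the test. Mrpl44, a protein related to ribonuclease III, was at 0.53, and Mrps27, a pentatricopeptide repeat protein, at 0.37. Mrps5 of the small subunit was at 0.37, Mrpl37 at 0.32, Mrps34 at 0.22, Mrpl24 of the tunnel exit at 0.18 and Mrps30 at 0.12. Mrps12 of the decoding site was at -0.24. Its KI LIF/2i values were 71.9, 64.7 and 30.3 CPM beside 68.4, 67.3 and 63.4 in WT, so that replicate 3 alone lay below the WT range. Mrps18a, Mrps18b and Mrps18c, 3 homologues of 1 bacterial protein, were at 0.15, 0.18 and 0.41. The lowest of all was Mrps36 at -0.36, followed by Mrps6 at -0.31, Mrpl20 at -0.28 and Mrpl41 at -0.24, and the genotypes overlapped in each of them. Leaving out single LIF/2i libraries moved Mrps6 between -0.57 and -0.16 and Mrpl41 between -0.52 and -0.08.

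**Figure D3:**
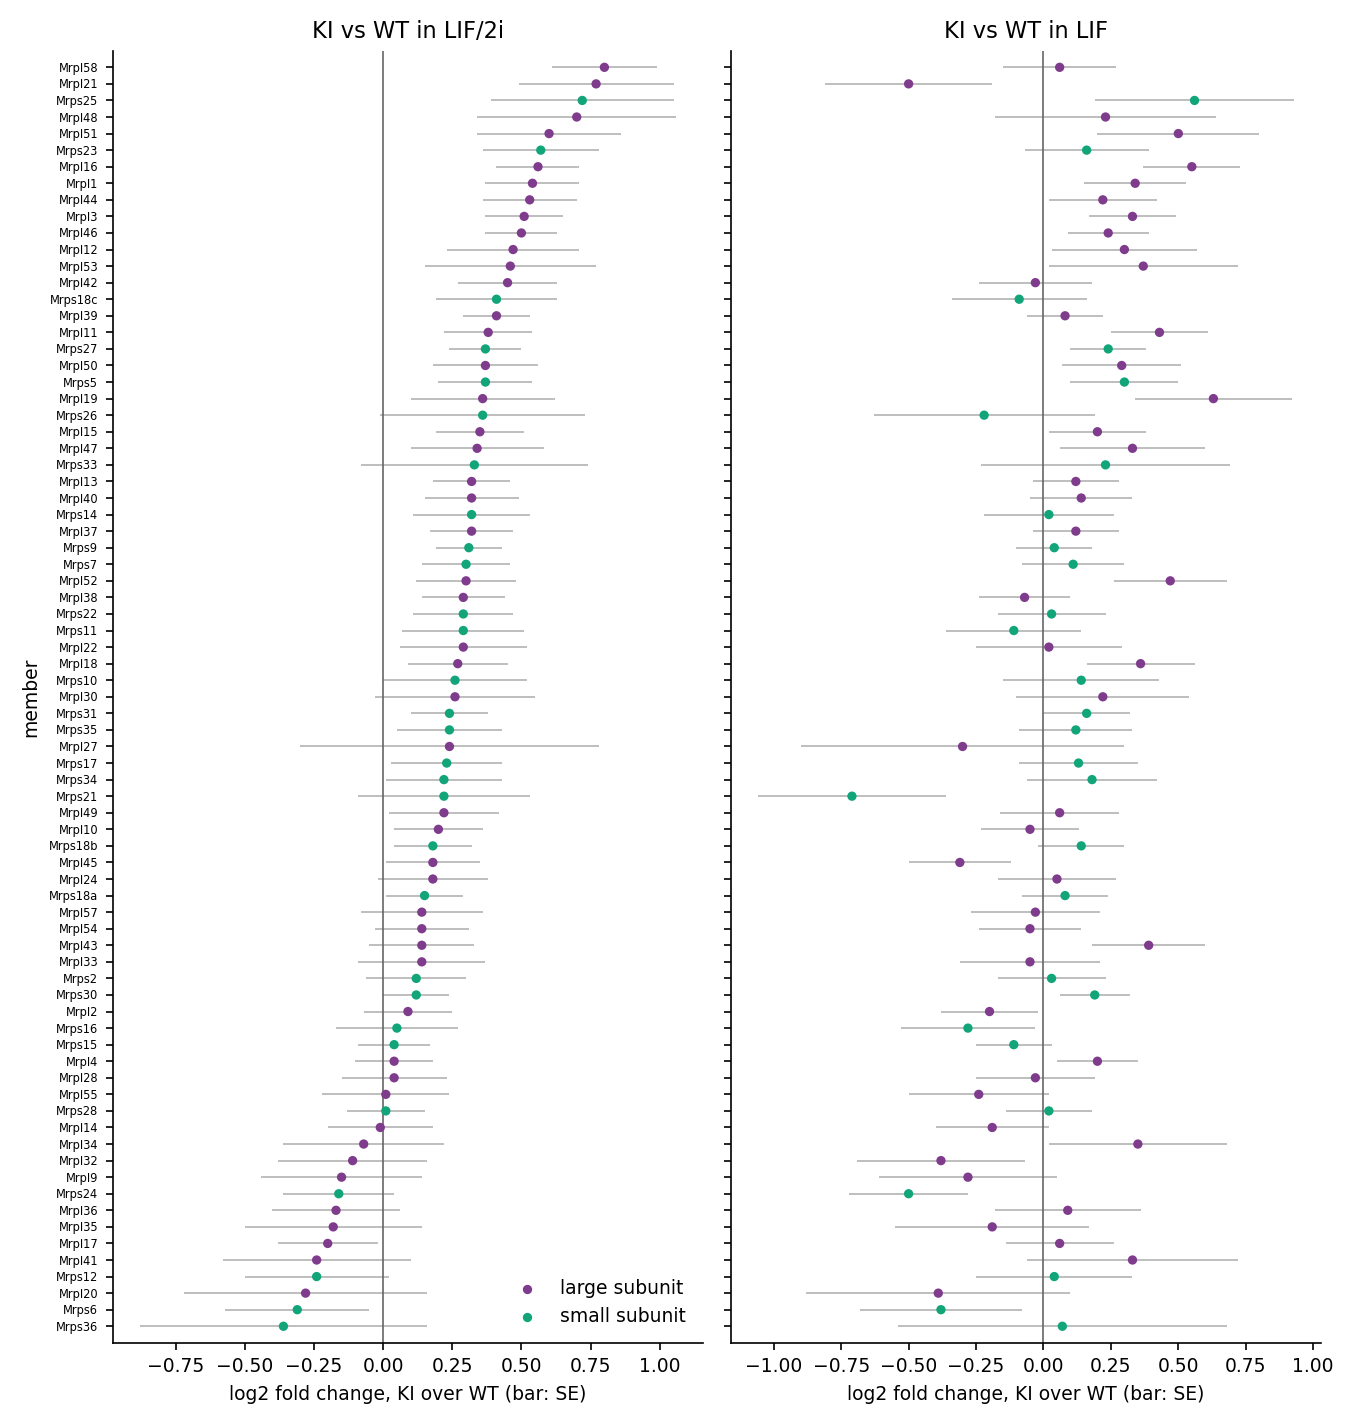
Log2 fold change of KI over WT for the 77 tested members in LIF/2i (left) and in LIF (right), in the order of the left panel. Points are edgeR estimates, bars their standard errors, and colours the subunit by symbol. In LIF/2i 64 members lie to the right of 0, from -0.36 for Mrps36 to 0.80 for Mrpl58, and in LIF 52 do, from -0.71 for Mrps21 to 0.63 for Mrpl19.

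In LIF, the genotypes were closer. The median log2 fold change of members was 0.08, against 0.00 over all genes tested, with 52 of 77 members above 0. None of 77 members was called by edgeR, where 0.144% of all genes were (0.0151% up and 0.129% down), and DESeq2 and limma-voom called 0. Unadjusted p was under 0.05 for 4 members (5.19%, against 10.7% of genes). The median rose to 0.14 without WT LIF replicate 2 and to 0.13 without KI LIF replicate 2. It was 0.07 at the lowest when single libraries were left out. All KI samples were above all WT samples in 21 members (background 16.4%) and below in 6 (background 15.2%). The 3 highest were Mrpl19 at 0.63 ± 0.29, Mrps25 at 0.56 ± 0.37 and Mrpl16 at 0.55 ± 0.18. Without KI LIF replicate 1, Mrpl19 was at 0.38 and Mrps25 at 0.21. Mrpl16 had the smallest adjusted p, 0.266, with 43.5, 34.7 and 45.6 CPM in WT LIF and 60.1, 52.9 and 62.3 CPM in KI LIF. Its samples did not overlap between genotypes in either medium, although neither difference passed the test.

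At the other end in LIF stood Mrps21 at -0.71 ± 0.35, Mrps24 at -0.50 ± 0.22 and Mrpl21 at -0.50 ± 0.31. Mrps24 had 146, 149 and 146 CPM in WT LIF and 129, 97.6 and 88.1 CPM in KI LIF, without overlap. Mrps21 encodes a small protein of the small subunit and had 9.21, 19.2 and 12.3 CPM in WT LIF and 10.9, 9.51 and 7.20 CPM in KI LIF. WT LIF replicate 2 was its highest library, without which the difference was -0.22, and the groups overlapped. Mrpl58 overlapped in LIF, with 52.2, 52.3 and 53.5 CPM in WT, 53.5, 48.2 and 64.4 CPM in KI, and a log2 fold change of 0.06 ± 0.21.

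From LIF/2i to LIF, 2 members rose in WT cells and none fell. The median of members was 0.13, against 0.01 over all genes, and 54 members lay above 0. Mrpl58 and Mrpl38 were called by edgeR, which is 2 of 77 where 6.3% of all genes were called higher and 6.65% lower (13% in all). DESeq2 and limma-voom also called 2 members each. Unadjusted p was under 0.05 for 8 members (10.4%, against 27.5% of genes). The samples did not overlap in 21 members higher in LIF (background 23.6%) and in 5 lower (background 25.2%). The median of members was 0.06 without WT LIF/2i replicate 3.

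Mrpl58 rose from 28.9 ± 6.99 CPM (SD, n = 3) in WT LIF/2i to 52.6 ± 0.385 CPM (SD, n = 2) in WT LIF, by a log2 fold change of 0.86 ± 0.21 (SE) with an adjusted p of 0.0195. The WT LIF/2i libraries were thus the only group low in Mrpl58, and the other 3 groups had means between 50.2 and 55.4 CPM. Mrpl38, a protein of the central protuberance of the large subunit with a phosphatidylethanolamine-binding fold, had 76.1, 96.0 and 77.5 CPM in WT LIF/2i and 122, 145 and 116 CPM in WT LIF. All LIF samples were higher, by 0.68 ± 0.17 with an adjusted p of 0.0202. In KI the CPM values of Mrpl38 were 100, 117 and 86.0 in LIF/2i and in LIF 133, 125 and 123, again without overlap, with a log2 fold change of 0.32 ± 0.15 and an adjusted p of 0.228. Leaving out WT LIF/2i replicate 1 ended both WT calls (adjusted p 0.0685 for Mrpl58 and 0.0905 for Mrpl38), as did leaving out WT LIF replicate 2 (0.121 and 0.215), which leaves 1 WT LIF sample that is assumed to vary like the other groups. The call of Mrpl58 was also lost without both agreeing WT LIF libraries (adjusted p 0.10). Of the fibroblast markers, the collagen genes Col1a1, Col1a2 and Col3a1 rose with the medium in WT (3 of 4 tested). Thy1 was not called, and Lum, Dcn and Twist2 were under the count filter. Trophectoderm markers rose as well (3 of 5 tested, Krt8, Krt18 and Hand1). The whole trophectoderm list summed to 119 to 148 CPM in WT LIF/2i and 320 to 407 in WT LIF. Its largest part was Tfap2c, which was not called, at 109, 132 and 126 CPM in WT LIF/2i and 252, 204 and 250 in WT LIF. WT LIF replicate 2 was the highest WT LIF library for each called fibroblast and trophectoderm marker. Col1a1 stood there at 168 CPM beside 13.2 and 12.9 in replicates 1 and 3, and Col1a2 at 204 beside 8.89 and 6.06. Krt18 was at 93.0 CPM beside 29.2 and 24.9. Replicate 2 was also the highest WT LIF library for Mrpl38. The part of these markers in the rise of Mrpl58 and Mrpl38 was not tested.

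Other members that stood at the ends of this comparison did not pass the test. Mrps21 had a log2 fold change of 0.86 ± 0.34, Mrps10 one of 0.73 ± 0.29 and Mrpl21 one of 0.63 ± 0.30. Without WT LIF replicate 2, its highest library at 19.2 CPM, Mrps21 was at 0.37. Mrps10, a protein of the small subunit head, had 5.57, 6.13 and 5.51 CPM in WT LIF/2i and 8.40, 10.5 and 8.55 CPM in WT LIF. It was higher in LIF in every KI sample as well, where its CPM values were 6.87, 6.86 and 6.82 in LIF/2i and in LIF 11.3, 8.07 and 12.7. On the low side were Mrps2 at -0.45 ± 0.20, Mrpl17 at -0.44 ± 0.20 and Mrps12 at -0.40 ± 0.29.

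In KI cells no member passed the test between media, which did not pair KI libraries by replicate number. The median log2 fold change was -0.02, against -0.03 over all genes, and 35 of 77 members lay above 0. Its sign turned with single libraries, to 0.08 without KI LIF/2i replicate 1, and it was -0.08 without KI LIF/2i replicate 3 or KI LIF replicate 1. EdgeR called 0 of 77, where 9.05% of all genes were called (4.05% higher and 5% lower), and DESeq2 and limma-voom called 0. Unadjusted p was under 0.05 for 4 members (5.19%, against 23.7%). The samples did not overlap in 4 members higher in LIF (background 13.6%) and in 6 lower (background 13.5%). The smallest adjusted p was 0.0819, for Mrps2, a small subunit protein of bacterial descent, at -0.55 ± 0.18. Mrps2 had 117, 136 and 122 CPM in KI LIF/2i and 93.6, 72.0 and 93.6 CPM in KI LIF. Without WT LIF/2i replicate 3, which enters through the shared estimate of spread, Mrps2 was called with an adjusted p of 0.0286. Mrps24 was called as lower without KI LIF/2i replicate 3 (log2 fold change -0.63, adjusted p 0.0489), and was at -0.44 ± 0.20 with all samples and -0.29 without KI LIF/2i replicate 1. Mrpl21 was at -0.64 ± 0.28, with no overlap. Mrpl34 was at 0.33 ± 0.29, and at 0.05 without KI LIF/2i replicate 3, 0.14 without KI LIF replicate 1 and 0.68 without KI LIF/2i replicate 1.

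The difference between the genotypes' responses to the medium was tested as an interaction, and no member passed. The 77 members had a median of -0.15, against -0.03 over all genes, and 14 lay above 0. The median was -0.08 without WT LIF/2i replicate 3, -0.10 without WT LIF replicate 2 and -0.23 without WT LIF/2i replicate 2 or KI LIF/2i replicate 3. EdgeR called 0 members, with 0% of all genes called, DESeq2 and limma-voom called 0 members, and 2 members had an unadjusted p under 0.05 (2.6%, against 5.98% of genes). These were Mrpl21 at -1.27 ± 0.42 (adjusted p 0.74) and Mrpl58 at -0.74 ± 0.28 (adjusted p 0.809). Mrps21 was at -0.93 ± 0.47, and at -0.44 without WT LIF replicate 2. The highest were Mrpl41 at 0.58 and Mrpl34 at 0.42, the latter between 0.14 and 0.78 without single KI libraries. Mrpl21 had 10.5, 9.77 and 12.4 CPM in WT LIF and 8.44, 7.45 and 6.78 CPM in KI LIF, so it lay above WT in every KI sample in LIF/2i and below in every KI sample in LIF. The 4 comparisons and the interaction share samples, so their values for a member are not independent of each other.

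**Figure D4:**
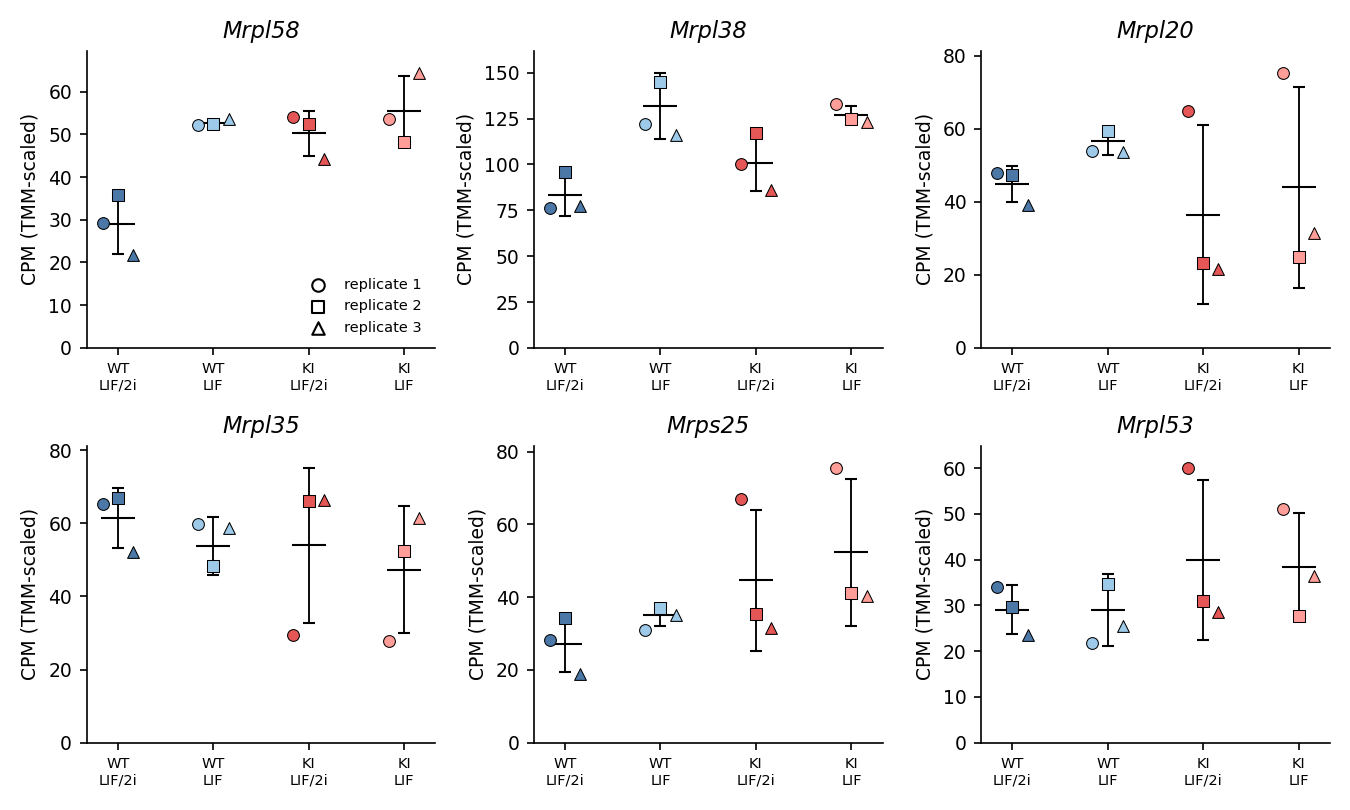
TMM-scaled CPM of 6 members in every library, with circles, squares and triangles for replicates 1, 2 and 3. Horizontal lines are group means and bars 1 SD (n = 3, and 2 in WT LIF, where replicates 1 and 3 enter as their mean). Mrpl58 is low in WT LIF/2i alone, Mrpl38 is higher in LIF, and in the other 4 members replicate 1 of both KI groups stands away from replicates 2 and 3.

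Within KI, the replicate numbers separated the libraries in 5 members. The test asked for any difference among the replicate numbers over the 6 KI libraries, with medium as a term. It was added after the values were seen. Each adjusted p covers the log2 differences of replicates 2 and 3 from replicate 1 together. Replicate 1 against the others, and each medium alone, were not tested. EdgeR called 5 of 77 members, where 8.11% of 12072 genes were called. In each of the 5, KI replicate 1 lay outside the values of replicates 2 and 3 in both media. The 5 were chosen by that test and are described here with their values. Mrpl20, a homologue of a bacterial protein that acts early in large subunit assembly, had levels in KI LIF/2i of 64.9, 23.1 and 21.6 CPM and in KI LIF of 75.3, 25 and 31.4 CPM. Its WT values lay between 39.2 and 59.4 CPM, so that replicate 1 of KI was above and replicates 2 and 3 below every WT library. The log2 differences from replicate 1 were -1.53 and -1.44 for replicates 2 and 3, with an adjusted p of 0.00265.

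Mrpl35, a large subunit protein of bacterial descent, went the other way. It had 29.5, 66.1 and 66.3 CPM in KI LIF/2i and 27.8, 52.5 and 61.4 CPM in KI LIF, against 48.2 to 67.0 CPM in WT. Here replicate 1 was the low library, and replicates 2 and 3 reached 1.06 and 1.16 above it on the log2 scale (adjusted p 0.00929). Mrps25, Mrpl53 and Mrpl19 were again high in replicate 1. Mrpl53, a mitochondria-specific protein of the large subunit, had 60.1, 30.9 and 28.6 CPM in KI LIF/2i and 51.0, 27.7 and 36.4 CPM in KI LIF, with log2 differences of -0.92 and -0.80 (adjusted p 0.0353). Mrps25 had 75.6, 41.2 and 40.3 CPM in KI LIF and differences of -0.89 and -1.01 (adjusted p 0.0125). Mrpl19 had 98.1, 69.2 and 54.0 CPM in KI LIF/2i and 107, 66.0 and 67.4 CPM in KI LIF, with differences of -0.58 and -0.77 (adjusted p 0.0379).

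The 5 members lie on 2 chromosomes, and the genes around them differed in the same direction. Mrpl20 is on chromosome 4 (155803650 to 155809975, GRCm38), and the other 4 are on chromosome 6, Mrpl35 from 71812997 to 71823810, Mrpl19 from 81957851 to 81965958, Mrpl53 from 83109040 to 83109939 and Mrps25 from 92169525 to 92184033. On chromosome 4 from 130 Mb on, 52.9% of 272 genes were called, with median log2 differences of -0.92 and -1.0 for replicates 2 and 3, whereas 4.7% of 489 genes were called before 130 Mb. The 3 members before 130 Mb (Mrpl37, Mrpl50 and Mrps15) were not called. On chromosome 6, 44.0% of 109 genes between 40 and 80 Mb were called, with medians of 0.96 and 0.98, the direction of Mrpl35. In the rest of chromosome 6, 27.1% of 442 genes were called, with medians of -0.49 and -0.52, the direction of the other 6 members there (replicate 2 was below replicate 1 in each). Of these 6, Mrps25, Mrpl53 and Mrpl19 were called and Mrpl51, Mrps33 and Mrps35 were not. Outside chromosomes 4 and 6, 5.99% of 10760 genes and 0 of 66 members were called. The highest shares there were on chromosome 12 (12.6% of 419 genes, medians -0.2 and -0.14) and chromosome 7 (10.9% of 987 genes, medians 0.16 and 0.09). Chromosome 12 holds no member, and 0 of 5 members on chromosome 7 were called.

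Set beside WT, the library medians of all genes in these regions show which KI libraries stood apart. On chromosome 4 from 130 Mb, KI replicate 1 was at 0.29 and 0.34 in its 2 media, within or next to the WT range of 0.24 to 0.32, while KI replicates 2 and 3 were between -0.52 and -0.67. On chromosome 6 from 40 to 80 Mb, KI replicate 1 was at -0.74 and -0.81 and the other libraries between 0.07 and 0.23. In the rest of chromosome 6, KI replicate 1 was at 0.48 and 0.41 and the other libraries between -0.13 and -0.03. So replicates 2 and 3 departed from WT on chromosome 4 and replicate 1 on chromosome 6, in both media. The bounds of 40, 80 and 130 Mb were read from medians in bins of 10 Mb after the values were seen. DNA copy number was not measured, and what sets these libraries apart was not tested.

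**Figure D5:**
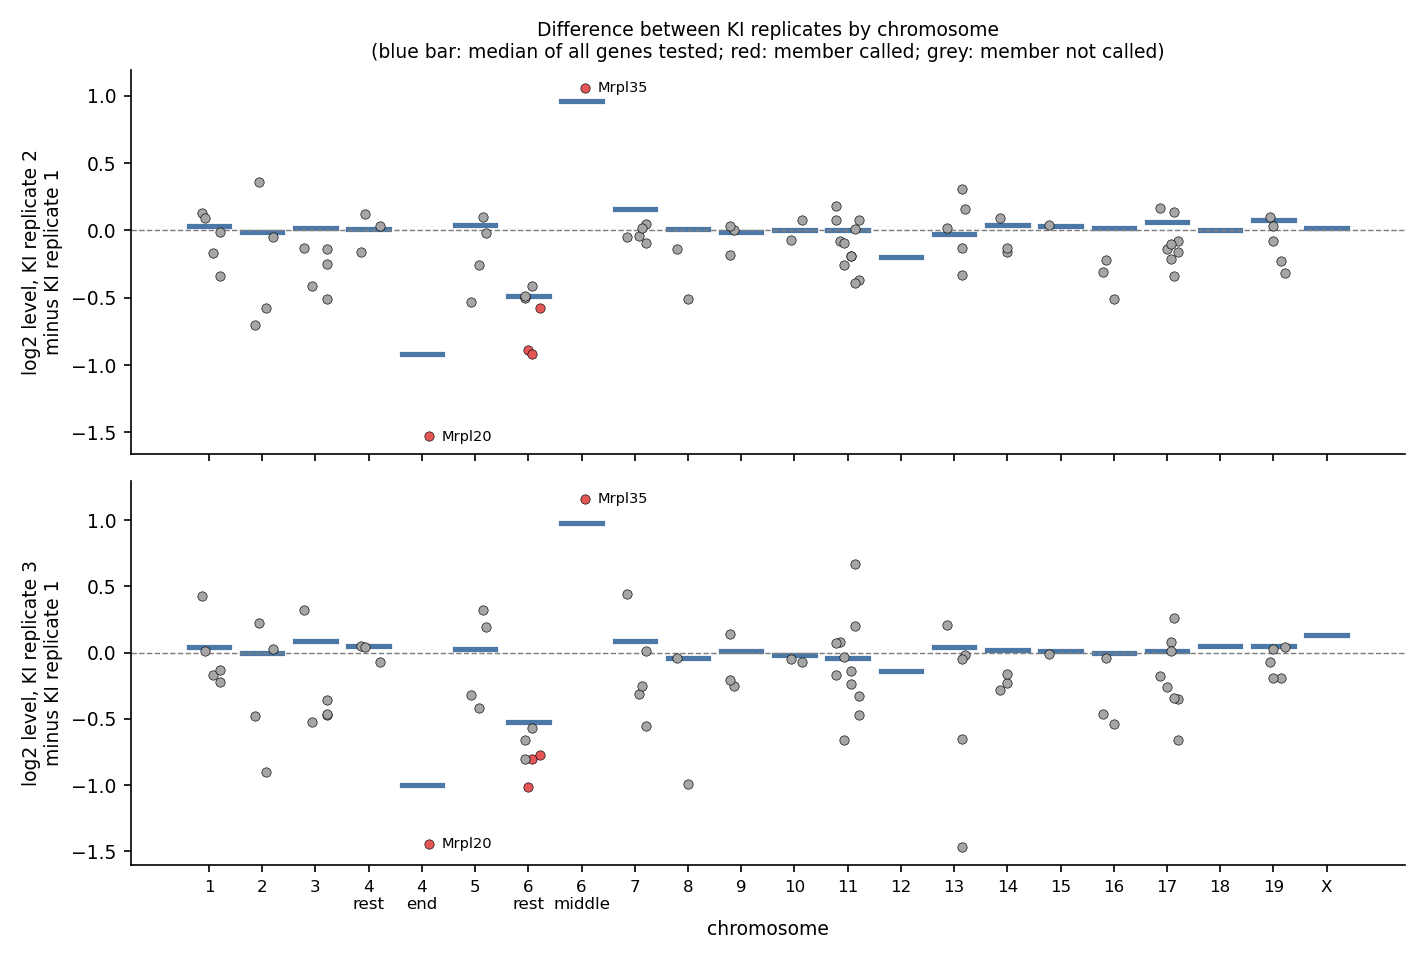
Log2 level of KI replicate 2 (top) and KI replicate 3 (bottom) minus KI replicate 1, over both media, by chromosome. Blue bars are medians of all genes tested, points are members (red when called), and chromosomes 4 and 6 are split into the regions named in the text. Mrpl20 lies below 0 at the end of chromosome 4, where the gene medians are -0.92 and -1.0, and Mrpl35 above 0 in the middle of chromosome 6, where they are 0.96 and 0.98.

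For Mrpl20 in LIF/2i, the log2 fold change of -0.28 ± 0.44 ran from -1.02 to -0.02 when single libraries were left out. Over the 66 members off chromosomes 4 and 6, the median KI to WT difference was 0.24 in LIF/2i and 0.07 in LIF, close to 0.26 and 0.08 for all members, and 0 were called in either medium.

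Proteins of the mitochondrial ribosome with other symbols were counted from a list of 5 genes. None of Dap3, Aurkaip1, Chchd1, Ptcd3 and Gadd45gip1 was called in the 4 comparisons or the interaction, and 1 had an unadjusted p under 0.05 between genotypes in LIF/2i. That was Chchd1, with 51.2, 52.8 and 44.7 CPM in WT LIF/2i and 62.4, 79.2 and 76.2 CPM in KI LIF/2i, a log2 fold change of 0.56 ± 0.14 and an adjusted p of 0.0659. Ptcd3, on chromosome 6, and Aurkaip1, on chromosome 4, showed the pattern of the replicates. Ptcd3 had 137, 310 and 375 CPM in KI LIF/2i and 153, 282 and 310 CPM in KI LIF (log2 differences of 1.04 and 1.24 from replicate 1, adjusted p 0.00344). Aurkaip1 had 118, 68.4 and 57.0 CPM in KI LIF/2i and 122, 65.4 and 50.8 CPM in KI LIF (-0.83 and -1.15, adjusted p 0.00569). Off chromosomes 4 and 6, the replicate number also separated Slirp on chromosome 12, a gene for an RNA-binding partner of Lrpprc listed with the translation factors below (-0.90 and -0.67, adjusted p 0.0129), and Myc on chromosome 15 (-0.67 and 0.38, adjusted p 0.0358).

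Of 25 listed genes for assembly of the mitochondrial ribosome, 24 were tested and 1 was called. Fastkd2, an RNA-binding protein needed for assembly of the large subunit, had 64.8, 75.9 and 39.8 CPM in WT LIF/2i and 118, 129 and 181 CPM in KI LIF/2i. It rose in KI by a log2 fold change of 1.24 ± 0.23 (adjusted p 0.020), and in WT from LIF/2i to LIF, where it reached 110, 108 and 109 CPM, by 0.85 ± 0.25 (adjusted p 0.0442). Fastkd2, like Mrpl58, was thus lowest in the WT LIF/2i libraries. The median of the assembly genes in LIF/2i was 0.23, close to the 0.26 of the ribosomal proteins, and in LIF it was 0.26. Summed, the assembly genes gave 919 to 1150 CPM in WT LIF/2i and 1070 to 1150 in WT LIF. In KI the sums were 1220 to 1360 CPM in LIF/2i and 1270 to 1380 in LIF. Every KI sum was above every WT sum. Dhx30 was the largest part, at 226 to 305 CPM in WT libraries and 288 to 378 in KI libraries. Together with Fastkd2 it held much of the difference, and the other assembly genes were not summed alone.

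Of 20 translation factors of mitochondria, 19 were tested and 0 were called by edgeR in the 4 comparisons or the interaction, with 3 under an unadjusted p of 0.05 between genotypes in each medium. Their medians were 0.23 in LIF/2i and 0.13 in LIF, and their sums were 1100 to 1290 CPM in WT libraries and 1360 to 1520 CPM in KI libraries. Lrpprc was the largest part, at 360 to 472 CPM in WT libraries and 366 to 540 in KI libraries. Gfm1 was at 127 to 161 CPM in WT and 162 to 203 in KI. Others, such as Mtif2 and Gatb, overlapped between genotypes, and the factors were not summed without Lrpprc and Gfm1. Of 6 tested genes of mitochondrial transcription and 13 mitochondrially encoded genes, none was called by edgeR in the 4 comparisons, where at most 1 and 2 of them had an unadjusted p under 0.05. The mitochondrially encoded genes, whose messages these ribosomes translate, had a median of 0.28 for KI over WT in LIF/2i and -0.54 in LIF, with 10 and 3 of the 13 above 0. Their sums overlapped in LIF/2i (11300 to 28300 CPM in KI and 11600 to 18100 in WT), and in LIF every KI library was below every WT library (13600 to 18500 CPM in KI and 18800 to 23000 in WT). 

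Of 12 listed regulators of such genes, 11 were tested. Myc rose from LIF/2i to LIF in WT, from 4.00 ± 2.57 to 33.0 ± 4.40 CPM (log2 fold change 2.98 ± 0.46, adjusted p 0.00228), and in KI from 12.9 ± 5.18 CPM to 50.7 ± 15.7 CPM (1.96 ± 0.39, adjusted p 0.0103). Mycn rose in KI by 0.79 ± 0.19 (adjusted p 0.0252). The members' medians between media were 0.13 in WT and -0.02 in KI. No regulator was called between genotypes, where the unadjusted p was under 0.05 for 4 in LIF/2i and 1 in LIF. Nrf1, Gabpa and Yy1, the factors whose letters were searched in the promoters above, were called in none of the comparisons.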

How the data were processed

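RNA was taken from the supernatant of lysates, depleted of ribosomal RNA and fragmented, per the labels' protocols. The authors deposited raw, unnormalized counts in 1 table. Per the file headers each gene was counted over the coding part of 1 transcript. Tools named in the submitters' processing notes are UMI-tools 1.0.1, Bowtie 1.3.0 and cutadapt 3.4. For their roles, the build, the annotation and the handling of multiply matching reads, nothing is given in the sources used here. Transcripts were matched by identifier to GENCODE M21 (22155 of 22416). Copies named -ps exist for 3 members, whose counts could be shared.

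The count test was edgeR 4.0.16 under R 4.3.3, after filterByExpr (minimum count 10) and TMM scaling, whose factors were 0.946 to 1.04. A robust glmQLFit estimated each group's mean from the 11 samples. Contrasts were tested two-sided with the quasi-likelihood F test and Benjamini-Hochberg adjustment over 13229 genes at 0.05. Standard errors came from the F statistic. The biological coefficient of variation was 0.234. The design had assumed 12 samples. CPM are TMM-scaled, and WT LIF replicates 1 and 3 enter means as 1 sample. The fit was tested on simulated data.

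Members, lists and the rule for named genes were chosen with earlier results of these data known. That rule took called members, the 3 highest and 3 lowest by fold change with at least 5 CPM, the 3 highest and 3 lowest levels, called genes of the other lists and a panel by role. Members named for DESeq2 calls, for spread, for neighbours or for the KI replicates, and Chchd1, Ptcd3, Aurkaip1, Slirp, Nrf1, Gabpa and Yy1, were chosen after their values were seen.

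Deviations of same-numbered KI samples correlated across media (0.51, 0.38 and 0.23 for replicates 1, 2 and 3), so the numbers pair KI samples. This pairing comes from the data, not the labels. Each other comparison had a pair under 0.1. Alternatives were DESeq2 1.42.0, limma-voom (limma 3.58.1), other scaling, other filters, only the groups compared, all 12 libraries separately, the replicate block and leaving out each library.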

Additional observations from a re-analysis of the deposited data

How the results depend on the processing

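Of the counts and medians recomputed under alternatives, 221 kept their value within the stated bounds (counts within 1.5 times, medians within an SD of 0.13) and 11 did not. For KI against WT in LIF/2i, where 0 members were called, DESeq2 called 5, limma-voom 1, no filter on low counts 1, all 12 libraries counted separately 2 (Mrpl46 and Mrpl58) and the replicate block 1 (Mrpl58), each including Mrpl58 (adjusted p 0.00725, 0.0487, 0.0472, 0.0315 and 0.0409). The replicate block changed no other call. It fits the same effect of each replicate number to WT and KI, so it does not model a pairing found within KI alone. The KI comparison between media was not tested with KI pairs. For LIF against LIF/2i in WT, with 2 called, leaving out 1 library gave 0 to 3 and leaving out both agreeing WT LIF libraries, an alternative chosen after seeing the data, gave 1 (Mrpl38). In KI, with 0 called, leaving out 1 library gave 0 to 1. Members called by KI replicate number were 5, and 8 with no filter. The members' median stayed positive for KI against WT in both media (0.14 to 0.35 in LIF/2i and 0.07 to 0.14 in LIF without 1 library). The interaction of Mrps12 turned from 0.28 to -0.01 without KI LIF/2i replicate 3, and reached 0.51 without KI LIF/2i replicate 1. The cause was not tested for these changes. Depth limits the 9 members under 10 CPM, and in the 2 shallowest libraries 3 counts are 1.06 and 1.3 CPM.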
